A study of Bos grunniens with 6 samples.

Results

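Cell-cell junctions hold epithelial cells together. Desmosomes join the keratin filaments of neighbouring cells through desmosomal cadherins and the plaque proteins plakoglobin, the plakophilins and the plakins. Adherens junctions join actin filaments through classical cadherins and the catenins, and tight junctions seal the space between cells with claudins and related membrane proteins that are held by scaffolds such as the zonula occludens proteins. In the hair follicle the matrix is an epithelium that carries such junctions, whereas the dermal papilla at the base of the follicle is a condensate of mesenchymal cells.

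The genes described here are the rows of a yak (Bos grunniens) expression table whose annotation holds the terms desmosome, bicellular tight junction or adherens junction, together with CDH1, which carries none of them. Rows that belong to the pathways for Wnt signaling, ErbB signaling, axon guidance or ECM-receptor interaction were left out, as was KRT8. This gave 126 of 15646 rows after 9 of 135 were left out. The desmosome term covered 20 of them, the bicellular tight junction term 82 and the adherens junction term 39, and 15 carried more than 1 term. The samples were cultured dermal papilla cells (DPC, n = 3) and cultured hair matrix cells (HMC, n = 3). Both were wild type, were isolated from skin and grew in the same DMEM/F12 medium with 10% FBS, EGF at 20 ng/mL and IGF1 at 10 ng/mL. The labels number the replicates but do not say whether they came from separate animals, and if they did not, p-values measure only the spread between these cultures.

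Levels are FPKM, a unit per gene length and per mapped fragments, which allows levels of different genes to be set side by side. The FPKM of all genes summed to 548897 to 554803 per DPC library, against 647963 to 651773 per HMC library, so differences between the groups are also given under other scalings. Whole reads recovered from the FPKM steps came to at least 13.1 to 13.4 M per DPC library and at least 13.7 to 14.0 M per HMC library (M, mega). Genes with a mean of 0.5 FPKM or more over the 6 libraries were compared with limma on log2(FPKM + 1), and p-values were adjusted across the 11883 genes that entered this comparison. Differences are DPC minus HMC on that scale, so a negative value means a higher level in HMC. The pseudocount of 1 FPKM makes the differences of genes near 0 smaller than their ratios. The labelled cell types were checked against markers. All 7 mesenchyme markers were higher in DPC, where their summed FPKM was 13617 to 13950, against 514 to 611 in HMC. Of 8 epithelium markers 7 were higher in HMC, where the summed FPKM was 9986 to 10400.5, against 72.2 to 94.8 in DPC. The largest parts of the HMC sum were KRT19, KRT8 and KRT5, with means of 4090, 3352 and 1083 FPKM. KRT14 was not called, with 12.4 to 19.7 FPKM in DPC, against 14.7 to 15.4 FPKM in HMC. These are markers of epithelium in general, so the check does not tell hair matrix from other epithelia. CDH1 and EPCAM belong to that marker list and are also members. Of other cell types, the smooth muscle and pericyte markers summed to 9183 to 9529 FPKM in DPC, almost all of it ACTA2, against 162 to 194 FPKM in HMC. Melanocyte markers summed to 5.73 to 5.95 FPKM in DPC cultures, against 5.71 to 7.32 FPKM in HMC cultures, immune markers to 3.59 to 4.24 FPKM in DPC cultures, against 14.3 to 20.0 FPKM in HMC cultures, and the Schwann marker S100B stood at 5.90 to 8.96 FPKM in DPC cultures, against 3.25 to 4.85 FPKM in HMC cultures. The endothelial marker VWF reached 1.13 FPKM in HMC, while PECAM1, CDH5 and CLDN5 were at or below 0.109 FPKM in every library. Each culture thus carried some mRNA of the other type's markers, and its part in the results below was not tested. In such bulk samples a smaller number of expressing cells and less mRNA per cell cannot be told apart.

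Most junction genes had more mRNA in HMC. Of the 126 members 99 were tested, and 19 lay higher in DPC, 65 lay higher in HMC and 15 did not pass. Over all genes tested, 75.9% passed, 29.7% toward DPC and 46.2% toward HMC, so a call by itself was common. At a difference of 2-fold or more, 7 members lay above in DPC and 45 in HMC, where the background was 11% toward DPC and 16.1% toward HMC. The values of DPC and HMC did not overlap for 90 of the 99, beside 77.9% of all genes. The median log2 difference was -0.86 over the tested members and -0.15 over all genes. Other scalings moved the latter to -0.02 with median-of-ratios factors and to 0.04 with quantile normalization. The median of the members was -0.73 with median-of-ratios factors and -0.60 with quantile normalization. Among all called genes the share higher in DPC was 39.1% as deposited, 48.8% with median-of-ratios factors and 53.6% with quantile normalization, and among called members it was 22.6%, 29.1% and 31.0%.

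**Figure D1:**
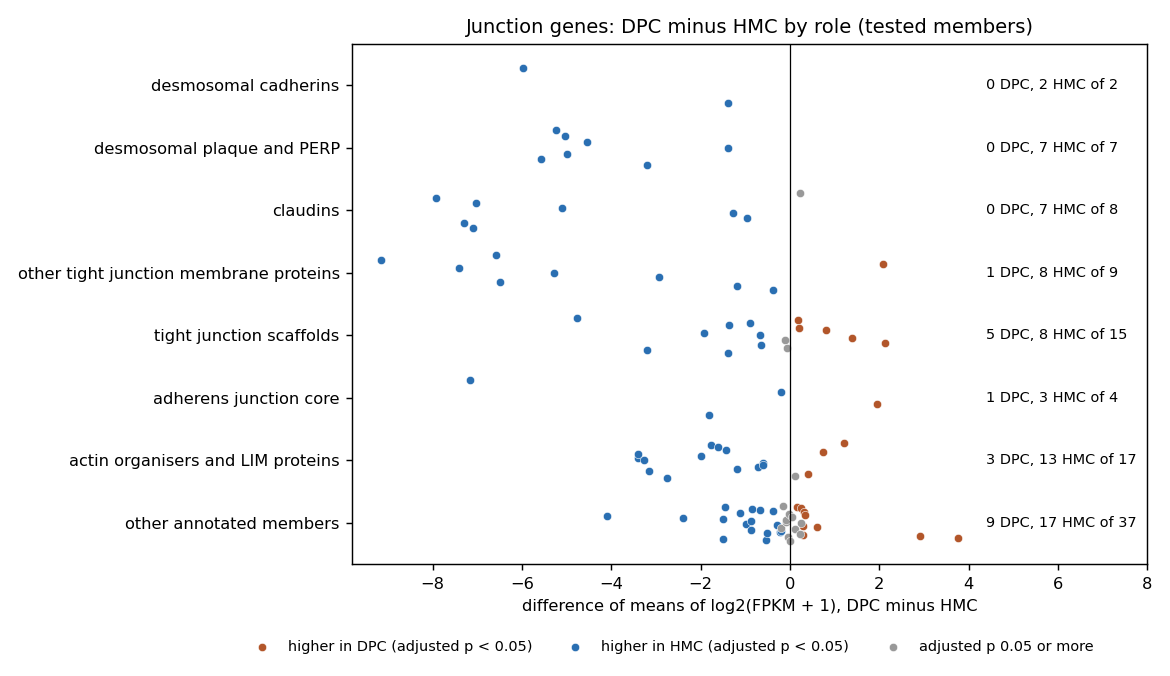
Each point is a tested junction gene, placed by its difference of mean log2(FPKM + 1), DPC minus HMC, in rows by role; the counts at the right give calls at an adjusted p under 0.05. The claudins, the other tight junction membrane proteins and the desmosomal plaque lie mostly below -4, while the scaffolds and the other annotated members spread across 0.

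Membrane proteins and other members had different counts. Members annotated as integral membrane proteins, 32 of 48 tested, had 3 genes higher in DPC and 26 higher in HMC, with a median log2 difference of -2.19. The other members, 67 of 78 tested, had 16 higher in DPC and 39 higher in HMC, with a median of -0.61. All 8 tested members with the annotation cadherin binding were higher in HMC. By term, the desmosome members had 1 gene higher in DPC and 13 higher in HMC among 16 tested (median -1.42). The bicellular tight junction members had 13 higher in DPC and 38 higher in HMC among 62 (median -0.79). The adherens junction members had 8 higher in DPC and 20 higher in HMC among 32 (median -0.56). No test of the difference between these groups was made.

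A number of members were near 0 in DPC and abundant in HMC. With a mean under 1 FPKM in DPC and 10 FPKM or more in HMC there were 16 rows, 12.7% of the 126 members, beside 1.78% of all rows of the table. These limits were chosen after the values were seen. The 16 rows are CDH1, DSG3, PKP1, PKP2, CLDN1, CLDN7, CLDN8, both CLDN4 rows, EPCAM, F11R, CXADR, MARVELD3, CGN, SHROOM1 and TRPV4. The opposite pattern was found for TMEM204, 0.794% of the members, beside 0.882% of all rows. A further 37 members, 29.4%, had 10 FPKM or more in both cell types, beside 34.9% of all rows.

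The desmosomal cadherins differed from each other in how much mRNA DPC held. DSG3 (ENSBGRG00000022834), a desmoglein of stratified epithelia, had 0.700, 0.256 and 0.732 FPKM in DPC, against 94.2, 98.1 and 98.4 FPKM in HMC. All HMC libraries were far above all DPC libraries (log2 difference -5.98, SE 0.122, limma adjusted p = 1.51e-09). DSC3 (ENSBGRG00000023388), a desmocollin and partner of desmogleins, had 51.0, 52.4 and 48.9 FPKM in DPC, against 134, 135 and 135 FPKM in HMC. It was higher in HMC as well (log2 difference -1.39, SE 0.041, limma adjusted p = 1.28e-08), but DPC held 50.8 ± 1.76 FPKM (SD, n = 3) of it, from 12600 recovered reads. The same DPC libraries gave 67 reads of DSG3 and, for the desmoglein DSG2, which carries no junction term in the table, 58 reads. DSG2 had 0.218, 0.292 and 0.288 FPKM in DPC, against 94.8, 91.6 and 92.6 FPKM in HMC. DSG1 and DSC1, cadherins of the upper epidermal layers, did not reach the level for a test. DSG1 had at most 0.0240 FPKM in DPC cultures, against 0.709 to 0.949 FPKM in HMC cultures, and DSC1 was listed at 0 in DPC and stood at 0.0524 to 0.0796 FPKM in HMC.

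All 7 tested genes of the desmosomal plaque and its tetraspan partner PERP were higher in HMC, with a median log2 difference of -5.00. Their summed FPKM, with the untested second PERP row, was 34.1 ± 1.04 in DPC and 834 ± 16.6 in HMC (SD, n = 3 each). PERP (KCP1 in the table, ENSBGRG00000014011), a membrane protein needed for desmosome assembly in mouse skin, had 7.40, 6.54 and 8.37 FPKM in DPC, against 327, 314 and 311 FPKM in HMC. A second row of that symbol reached 1.30 FPKM and was not tested. JUP (plakoglobin, ENSBGRG00000011117), which binds desmosomal and classical cadherins alike, had 10.6, 9.65 and 11.9 FPKM in DPC, against 277, 266 and 272 FPKM in HMC (log2 difference -4.54, SE 0.070, limma adjusted p = 3.53e-10). Plakoglobin was thus detected in every DPC library at a level well above those of DSG3 and CDH1.

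The plakophilins, armadillo proteins that link cadherins to the plakins, split in the same way. PKP1 had 0.589, 0.573 and 0.311 FPKM in DPC, against 46.6, 47.9 and 45.2 FPKM in HMC. PKP2 had 0.161, 0.109 and 0.216 FPKM in DPC, against 37.4, 35.8 and 37.7 FPKM in HMC. PKP4, which is also found at adherens junctions, had 13.7, 14.8 and 13.1 FPKM in DPC, against 37.4, 39.4 and 36.8 FPKM in HMC. PKP1 and PKP2 had log2 differences of -5.00 and -5.03, whereas that of PKP4 was -1.39, and all passed. The plakin PPL (periplakin, KIAA0568 in the table) had 1.54, 1.47 and 1.28 FPKM in DPC, against 118, 115 and 111 FPKM in HMC. Its partner in the cornified envelope, EVPL (envoplakin), had 0.0246 to 0.0481 FPKM in DPC, against 8.25 to 8.85 FPKM in HMC. Their log2 differences were -5.57 and -3.20. The main plakin DSP (desmoplakin) has no desmosome term here and is not a member. It had 0.896, 0.721 and 0.628 FPKM in DPC, against 102, 105 and 106 FPKM in HMC (log2 difference -5.92, limma adjusted p = 1.34e-10).

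**Figure D2:**
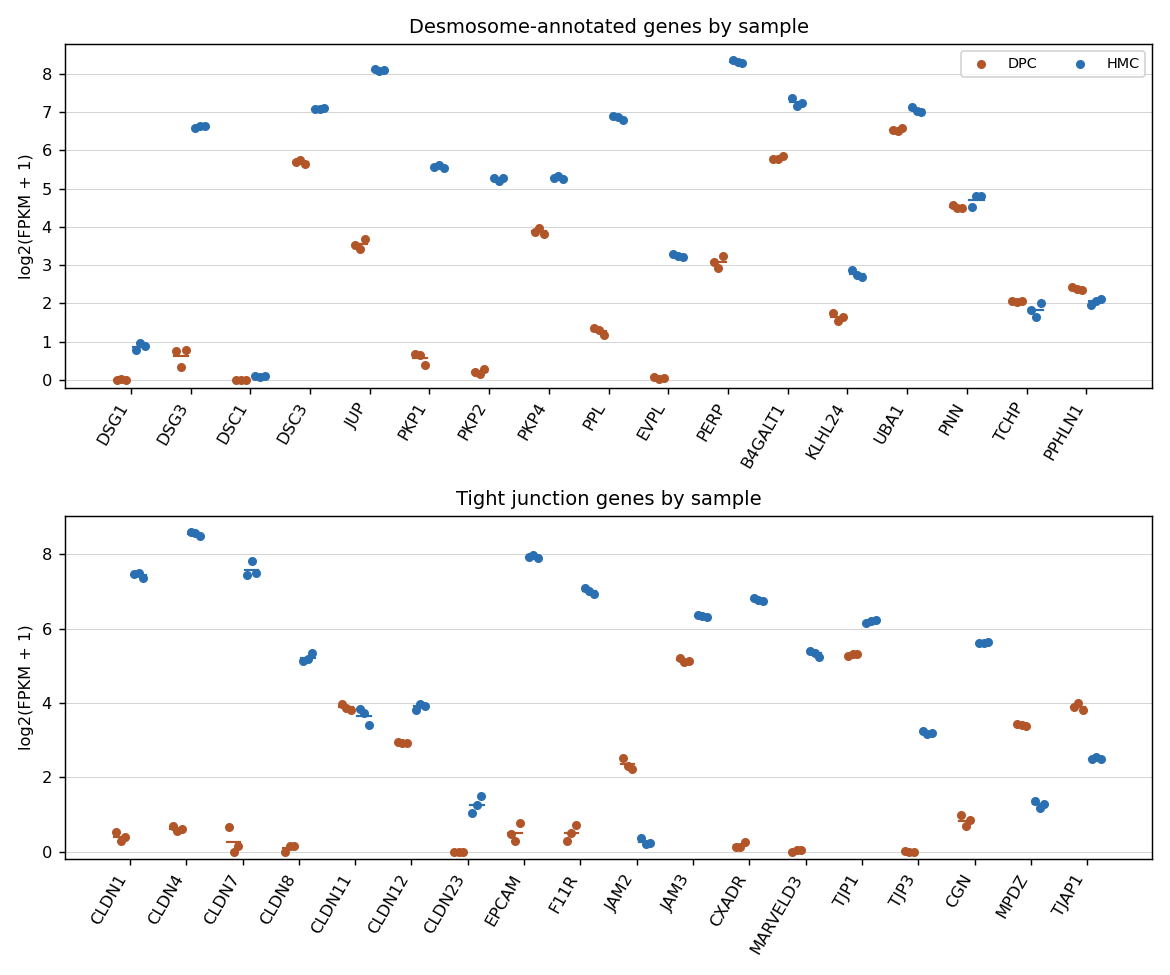
Each point is 1 library, with its level as log2(FPKM + 1), and short lines are group means of 3; DPC is drawn to the left of HMC for each gene, and for CLDN4 and PERP the more abundant row is shown. DSC3, PKP4, TJP1, JAM3, CLDN11 and CLDN12 are present in both cell types, most of the other core genes are near 0 in DPC, and JAM2, MPDZ and TJAP1 are higher in DPC.

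The remaining genes with the desmosome term are proteins with other main functions. UBA1 (UBE1), the ubiquitin-activating enzyme, had 90.2 to 94.4 FPKM in DPC cultures, against 127 to 139 FPKM in HMC cultures (log2 difference -0.52). B4GALT1 (GALT), a galactosyltransferase, had 53.3 to 56.9 FPKM in DPC cultures, against 142 to 164 FPKM in HMC cultures (log2 difference -1.46). KLHL24 (DRE1), a ubiquitin ligase adaptor that acts on keratin in human skin, had 1.89 to 2.39 FPKM in DPC cultures, against 5.42 to 6.26 FPKM in HMC cultures (log2 difference -1.12). These passed toward HMC, while PPHLN1 (periphilin, HRIHFB2003), which the table also annotates to the cornified envelope, was the only desmosome member higher in DPC. It had 4.10 to 4.41 FPKM in DPC cultures, against 2.89 to 3.36 FPKM in HMC cultures (log2 difference 0.34, limma adjusted p = 0.00448). PNN (pinin), a nuclear protein also reported at desmosomes, and TCHP (trichoplein), a keratin-binding protein, did not pass. PNN had 21.4 to 22.6 FPKM in DPC cultures, against 22.0 to 27.0 FPKM in HMC cultures (adjusted p = 0.0593 by limma). TCHP had 3.12 to 3.20 FPKM in DPC cultures, against 2.13 to 3.01 FPKM in HMC cultures (adjusted p = 0.0739 by limma), so its groups did not overlap although the test was missed.

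At the tight junction, the claudins, tetraspan proteins that form its strands, were mostly higher in HMC. Of 15 claudin rows 8 were tested, and 7 were higher in HMC and none in DPC. CLDN1, CLDN7, CLDN8, CLDN23 and the less abundant CLDN4 row had DPC means under 0.5 FPKM. They entered the test only through their HMC level, so the filter fixed their direction in this count. The more abundant row of CLDN4 (ENSBGRG00000013079) had 0.628, 0.467 and 0.519 FPKM in DPC, against 387, 377 and 355 FPKM in HMC (log2 difference -7.93, SE 0.062, limma adjusted p = 3.98e-11). A second CLDN4 row (ENSBGRG00000013047) had 0.169 to 0.431 FPKM in DPC cultures, against 162 to 185 FPKM in HMC cultures. The rows share an annotation and may share reads, so the level of each is uncertain, though both lay on the same side. CLDN7 had 0.584, 0 and 0.118 FPKM in DPC, against 171, 223 and 178 FPKM in HMC. CLDN1, required for the barrier of mouse skin, had 0.457, 0.216 and 0.319 FPKM in DPC, against 174, 180.1 and 163 FPKM in HMC. CLDN8 had at most 0.112 FPKM in DPC, from 2 recovered reads in all, against 34.2, 35.1 and 39.3 FPKM in HMC. For each of these claudins every HMC library lay above every DPC library. CLDN23 was listed at 0 in DPC, and had 1.07, 1.38 and 1.85 FPKM in HMC.

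Unlike these, CLDN12 and CLDN11 were present in both cell types. CLDN12 had 6.73, 6.59 and 6.67 FPKM in DPC, against 13.2, 14.8 and 14.2 FPKM in HMC (log2 difference -0.97, limma adjusted p = 2.26e-06). CLDN11, known from myelin and the testis, had 14.6, 13.6 and 13.2 FPKM in DPC, against 13.3, 12.2 and 9.67 FPKM in HMC, and the groups overlapped (log2 difference 0.23, SE 0.109, limma adjusted p = 0.0889). It was called toward DPC at 0.37 with median-of-ratios factors (limma adjusted p = 0.0158), at 0.42 with quantile normalization (limma adjusted p = 0.00749) and at 0.32 without HMC replicate 1 (limma adjusted p = 0.0312). Summed over all 15 rows, claudin mRNA was 22.2 ± 1.32 FPKM in DPC cultures, against 970.1 ± 43.5 FPKM in HMC cultures (SD, n = 3 each). Without CLDN11 and CLDN12 the sums were 2.30, 1.56 and 1.33 FPKM in DPC, against 953, 981 and 899 FPKM in HMC. The other 7 claudin rows, CLDN5, CLDN10, CLDN15, CLDN16, CLDN18, CLDN19 and CLDN20, were too low to test, with at most 0.462 FPKM in any library.

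Among 9 tested other membrane proteins of the tight junction 1 was higher in DPC and 8 were higher in HMC. EPCAM, an epithelial adhesion glycoprotein, had 0.396, 0.225 and 0.710 FPKM in DPC, against 240.4, 250.0 and 235 FPKM in HMC (log2 difference -7.41). Every HMC library lay far above every DPC library. MARVELD3, a tetraspan protein of the occludin family, had at most 0.0405 FPKM in DPC, from 2 recovered reads, against 41.4, 39.6 and 36.7 FPKM in HMC. IGSF5 (Jam4), an immunoglobulin protein of tight junctions in mouse, was listed at 0 in DPC and had 7.0, 6.16 and 6.76 FPKM in HMC.

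The junctional adhesion molecules, immunoglobulin proteins next to the claudins, did not all lie on the same side. F11R (JAM1) had 0.228, 0.420 and 0.645 FPKM in DPC, against 135, 127 and 121 FPKM in HMC (log2 difference -6.50, SE 0.107, limma adjusted p = 4.93e-10). JAM2 had 4.73, 3.92 and 3.71 FPKM in DPC, against 0.305, 0.151 and 0.187 FPKM in HMC (log2 difference 2.07, SE 0.105, limma adjusted p = 3.82e-07). JAM3 was abundant in both, with 36.2, 33.6 and 34.0 FPKM in DPC, against 81.5, 79.6 and 78.0 FPKM in HMC (log2 difference -1.18). None of these 3 overlapped between the cell types. Of the summed level of F11R, JAM2 and JAM3, DPC thus held mostly JAM3. The related CXADR (CAR), the coxsackievirus and adenovirus receptor, had 0.10, 0.102 and 0.202 FPKM in DPC, against 111, 107 and 106 FPKM in HMC (log2 difference -6.58). CLMP, a homologue of CXADR, was close in both, with 39.4 to 40.6 FPKM in DPC cultures, against 48.6 to 54.3 FPKM in HMC cultures (log2 difference -0.38). Quantile normalization ended the call of CLMP, at -0.09. ESAM, JAML, BVES and the endothelial CDH5 were not tested, and none exceeded 0.291 FPKM in any library.

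The scaffolds on the inner side of the tight junction were more evenly spread, with 5 higher in DPC and 8 higher in HMC among 15 tested. These shares, 33.3% and 53.3%, were near the 29.7% and 46.2% of all genes tested. The zonula occludens proteins tie claudins to actin. TJP1 (ZO1) had 37.6, 38.5 and 39.1 FPKM in DPC, against 69.3, 72.9 and 73.3 FPKM in HMC (log2 difference -0.89, SE 0.044, limma adjusted p = 3.46e-07). TJP3 (ZO3), which is found in epithelia, had 1 recovered read in all 3 DPC libraries together and had 8.57, 7.93 and 8.13 FPKM in HMC. CGN (cingulin), which joins these scaffolds to myosin, had 0.977, 0.620 and 0.806 FPKM in DPC, against 47.8, 47.8 and 49.0 FPKM in HMC (log2 difference -4.78).

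Among the scaffolds higher in DPC, MPDZ (MUPP1), a multi-PDZ protein that binds claudins, had 9.75, 9.55 and 9.51 FPKM in DPC, against 1.56, 1.27 and 1.45 FPKM in HMC (log2 difference 2.13, SE 0.076, limma adjusted p = 4.15e-08). TJAP1 (PILT) had 13.9, 14.9 and 13.0 FPKM in DPC, against 4.59, 4.80 and 4.67 FPKM in HMC (log2 difference 1.39). PARD3B, a homologue of the polarity protein PARD3, had 4.08 to 4.61 FPKM in DPC cultures, against 1.88 to 2.16 FPKM in HMC cultures (log2 difference 0.81). None of the 3 overlapped between the groups. The angiomotin-like genes AMOTL2 and AMOTL1 were close in both cell types, with log2 differences of 0.20 and 0.19. Leaving out DPC replicate 1, DPC replicate 3 or HMC replicate 2 ended the call of AMOTL1, at 0.19, 0.16 and 0.17. MAGI3 and DLG3, scaffolds of the MAGI and discs-large families, lay toward HMC. MAGI3 had 4.41 to 4.77 FPKM in DPC cultures, against 12.9 to 13.4 FPKM in HMC cultures, and DLG3 had 3.00 to 3.48 FPKM in DPC cultures, against 9.75 to 10.6 FPKM in HMC cultures. LIN7C, a PDZ protein of the crumbs complex, and USP53, linked to tight junctions in human and mouse, did not pass. LIN7C had 11.8 to 14.5 FPKM in DPC cultures, against 12.2 to 15.2 FPKM in HMC cultures, and USP53 had 4.37 to 4.55 FPKM in DPC cultures, against 4.68 to 5.33 FPKM in HMC cultures.

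At the adherens junction, CDH1 (E-cadherin, ENSBGRG00000012778) had 0.308, 0.401 and 0.396 FPKM in DPC, against 187, 189 and 209 FPKM in HMC (log2 difference -7.16, SE 0.067, limma adjusted p = 5.32e-11). The DPC libraries held 39 recovered reads of it and the HMC libraries 21665. The actin-binding catenin CTNNA1 and vinculin (VCL), which connect cadherins to actin, lay in opposite directions. CTNNA1 (ENSBGRG00000004361) had 82.0, 82.6 and 83.5 FPKM in DPC, against 300.4, 292 and 288 FPKM in HMC (log2 difference -1.81, SE 0.035, limma adjusted p = 1.08e-09). VCL (ENSBGRG00000018257), which binds alpha-catenin under tension and is also a protein of focal adhesions, had 282, 288 and 282 FPKM in DPC, against 70.8, 73.4 and 74.3 FPKM in HMC (log2 difference 1.95, SE 0.036, limma adjusted p = 8.87e-10). The neuronal catenin CTNNA2 (CAPR) had at most 0.0225 FPKM in DPC cultures, against 0.695 to 1.03 FPKM in HMC cultures and was not tested. VEZT (vezatin), a membrane protein that binds the cadherin-catenin complex, had 15.9 to 17.0 FPKM in DPC cultures, against 18.6 to 19.2 FPKM in HMC cultures. Its log2 difference was -0.20 (limma adjusted p = 0.0121), and it was -0.05 with median-of-ratios factors and 0.01 with quantile normalization, where it was not called.

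The table also holds classical cadherins and catenins without the junction terms or in the pathways left out, and these were taken from a list of adherens junction proteins. Cadherins known from mesenchyme were higher in DPC. CDH2 (N-cadherin) had 23.4, 25.0 and 23.1 FPKM in DPC, against 0.386, 0.611 and 0.816 FPKM in HMC (log2 difference 3.96). CDH11 had 203, 214 and 207 FPKM in DPC, against 1.99, 2.80 and 3.64 FPKM in HMC, and CDH13, a cadherin anchored to the membrane by a lipid, had 73.8, 77.0 and 74.6 FPKM in DPC, against 0.473, 0.531 and 0.609 FPKM in HMC. The levels of CDH11 in DPC and of CDH1 in HMC were thus close on the FPKM scale, at 208 ± 5.97 FPKM and 195 ± 12.6 FPKM (SD, n = 3 each). CDH3 (P-cadherin, CDHP), a cadherin of the hair matrix, had 1.29, 1.29 and 0.816 FPKM in DPC, against 8.23, 8.17 and 9.97 FPKM in HMC (log2 difference -2.20).

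The catenins CTNNB1 and CTNND1 of that list were present in both cell types. CTNNB1 (beta-catenin) had 319, 303 and 332 FPKM in DPC, against 281, 279 and 268 FPKM in HMC (log2 difference 0.20, limma adjusted p = 0.00237). CTNND1 (p120 catenin) had 28.2, 28.1 and 28.9 FPKM in DPC, against 107, 102 and 102 FPKM in HMC (log2 difference -1.83). Among the nectins, immunoglobulin adhesion proteins of adherens junctions, NECTIN1 and NECTIN4 lay toward HMC, at log2 differences of -2.07 and -4.65. NECTIN3 did not pass, with 8.72 to 10.3 FPKM in DPC cultures, against 8.13 to 9.46 FPKM in HMC cultures. Over the whole list, 5 of 16 tested genes passed toward DPC and 10 toward HMC. These are 31.2% and 62.5%, beside 29.7% and 46.2% of all genes tested. In the matching list of desmosome proteins all 11 tested genes were higher in HMC, and in that of tight junction proteins 1 of 16 was higher in DPC and 14 in HMC. The members make up 11 of 13, 25 of 26 and 6 of 20 matched genes of the desmosome, tight junction and adherens junction lists. In the same order, 3 of 16, 12 of 38 and 1 of 21 listed genes were not matched to a row. PKP3, DSC2, DSG4, OCLN, MARVELD2 and CLDN3 were among these.

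**Figure D3:**
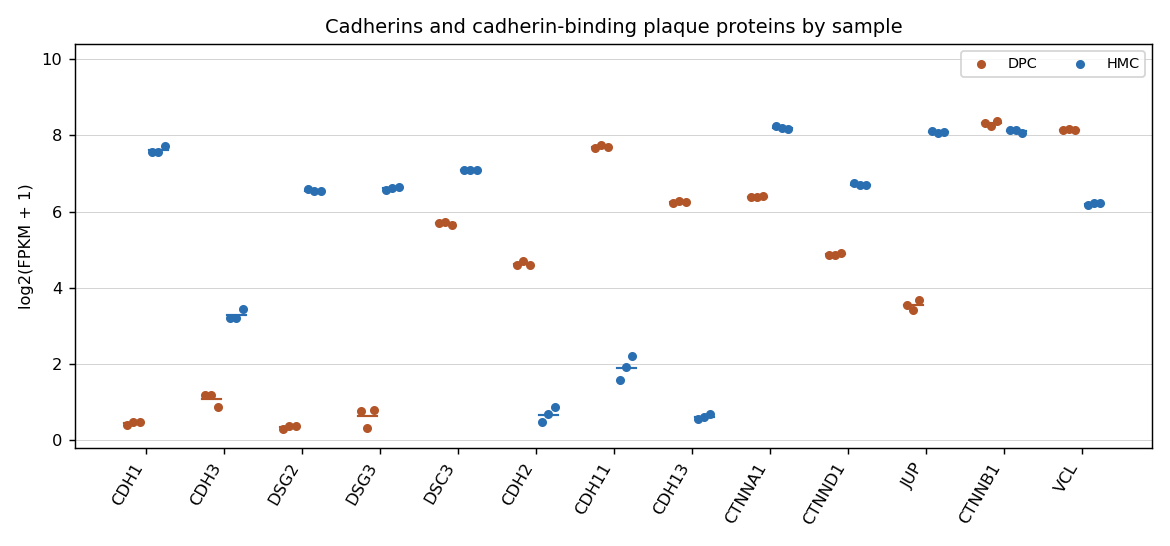
Levels of cadherins and of plaque proteins that bind them, as log2(FPKM + 1), with 1 point per library and lines at the means of 3; DPC is drawn to the left of HMC. CDH2, CDH11 and CDH13 are high in DPC and low in HMC, CDH1, DSG2 and DSG3 are the reverse, and DSC3, CTNNA1, CTNND1, CTNNB1 and VCL are present in both.

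Proteins that organise actin at junctions made up a further 18 members, of which 17 were tested, 3 higher in DPC and 13 higher in HMC (median log2 difference -1.43). SYNPO (synaptopodin, KIAA1029), which bundles actin with alpha-actinin, had 9.56, 9.36 and 9.0 FPKM in DPC, against 114, 109 and 102 FPKM in HMC (log2 difference -3.40). The shroom proteins recruit contractile actin to the apical junctions. SHROOM3 (MSTP013) had 5.61, 5.25 and 5.73 FPKM in DPC, against 62.1, 61.8 and 61.2 FPKM in HMC. SHROOM1 (APXL2) had 0.0980, 0.125 and 0.0742 FPKM in DPC, against 10.8, 10.1 and 11 FPKM in HMC. SHROOM4 had 3.30 to 4.85 FPKM in DPC cultures, against 9.04 to 10.5 FPKM in HMC cultures. All 3 were higher in HMC without overlap. EPB41L4B, a band-4.1 protein, had 1.14 to 1.53 FPKM in DPC cultures, against 19.2 to 19.9 FPKM in HMC cultures. SH3BP1, a GTPase-activating protein for Rac, had 3.63 to 3.90 FPKM in DPC cultures, against 29.6 to 34.0 FPKM in HMC cultures. MYO1C, an unconventional myosin, had 20.0 to 22.1 FPKM in DPC cultures, against 73.8 to 76.3 FPKM in HMC cultures. These 3 had log2 differences of -3.15, -2.76 and -1.78.

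The LIM proteins of the Ajuba family, which bind the cadherin-catenin complex and take part in Hippo signalling, did not share a direction. AJUBA (JUB) had 7.03, 6.46 and 6.93 FPKM in DPC, against 23.3, 23.0 and 22.4 FPKM in HMC (log2 difference -1.62). LIMD1 had 9.20 to 10.1 FPKM in DPC cultures, against 15.2 to 15.3 FPKM in HMC cultures (log2 difference -0.60). WTIP had 19.8, 19.6 and 19.7 FPKM in DPC, against 7.38, 8.20 and 8.31 FPKM in HMC (log2 difference 1.21, SE 0.064, limma adjusted p = 4.71e-07). ACTN1 (alpha-actinin, ENSBGRG00000006595), the most abundant member in DPC, had 678, 681 and 691 FPKM in DPC, against 506, 510.2 and 525 FPKM in HMC (log2 difference 0.41, limma adjusted p = 2.92e-06). ARHGAP17 (MSTP066), a GTPase-activating protein at tight junctions, had 34.3 to 37.7 FPKM in DPC cultures, against 18.2 to 24.3 FPKM in HMC cultures (log2 difference 0.74). VASP, an actin polymerisation factor, had 110.0 to 127 FPKM in DPC cultures, against 192 to 194 FPKM in HMC cultures. PPP1R9B, a phosphatase subunit that binds actin, did not pass, with 39.3 to 43.2 FPKM in DPC cultures, against 36.3 to 39.0 FPKM in HMC cultures.

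The other 44 annotated members have no structural role in the junction that names them, or one outside the groups above. Among 37 tested, 9 were higher in DPC, 17 were higher in HMC and 11 did not pass, and the median log2 difference was -0.16, near the -0.15 of all genes. The members with the largest differences toward DPC were 2 small membrane proteins of the adherens junction. TMEM204 (CLP24, ENSBGRG00000026263), a claudin-like protein, had 18.6, 16.4 and 20.1 FPKM in DPC, against 0.540, 0.243 and 0.528 FPKM in HMC (log2 difference 3.76, SE 0.115, limma adjusted p = 1.55e-08). TMEM47 (TM4SF10, ENSBGRG00000008401), a relative of the claudin family, had 79.2, 70.5 and 72.9 FPKM in DPC, against 9.13, 9.11 and 8.56 FPKM in HMC (log2 difference 2.92, SE 0.061, limma adjusted p = 1.67e-09). No library of either group overlapped the other for these genes.

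Toward HMC, TRPV4 (VRL2), a calcium-permeable channel, had 0.141, 0.263 and 0.118 FPKM in DPC, against 19.7, 19.0 and 18.7 FPKM in HMC (log2 difference -4.10, SE 0.079, limma adjusted p = 1.12e-09). CCDC85C, a coiled-coil protein of apical junctions in mouse brain, had 0.343 to 0.510 FPKM in DPC cultures, against 5.83 to 7.62 FPKM in HMC cultures (log2 difference -2.40). TGFBR1, the type I receptor of TGF-beta, had 27.4 to 29.4 FPKM in DPC cultures, against 47.4 to 55.5 FPKM in HMC cultures (log2 difference -0.86). RAP2C, a small GTPase, has a pair of rows. The first (ENSBGRG00000023228) had 55.8 to 60.1 FPKM in DPC cultures, against 106 to 112 FPKM in HMC cultures. The other (ENSBGRG00000025274) had 23.3 to 26.5 FPKM in DPC cultures, against 25.4 to 26.5 FPKM in HMC cultures and did not pass. The rows may share reads. CYTH3 and CYTH1, exchange factors for ARF GTPases, lay toward DPC, at log2 differences of 0.60 and 0.26. Ciliary transition zone proteins were on either side of the threshold. RPGRIP1L had 3.04 to 3.15 FPKM in DPC cultures, against 2.23 to 2.40 FPKM in HMC cultures (log2 difference 0.30, limma adjusted p = 0.00603). NPHP4 had 0.735 to 0.849 FPKM in DPC cultures, against 0.364 to 0.642 FPKM in HMC cultures, and did not pass.

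Others that did not pass were near each other in both cell types. VAPA, a membrane protein of the endoplasmic reticulum, had 78.2, 57.4 and 62.8 FPKM in DPC, against 62.9, 76.3 and 60.9 FPKM in HMC (log2 difference -0.02, SE 0.124). ADAM15, a metalloprotease-disintegrin, had 13.4 to 14.9 FPKM in DPC cultures, against 12.8 to 15.2 FPKM in HMC cultures. TBCD, a tubulin-folding cofactor, had 18.1 to 20.2 FPKM in DPC cultures, against 20.5 to 24.0 FPKM in HMC cultures. ASH1L, a histone methyltransferase, had 10.1 to 11 FPKM in DPC cultures, against 10.2 to 10.5 FPKM in HMC cultures. UBN1, a histone chaperone subunit, had 13.9 to 15.6 FPKM in DPC cultures, against 13.1 to 13.6 FPKM in HMC cultures. NHS had 1.22 to 1.91 FPKM in DPC cultures, against 1.43 to 2.15 FPKM in HMC cultures. A missed threshold does not show that these levels are equal.

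Further members passed. MICALL2 (JRAB), an effector of RAB13 in junction assembly, had 3.58 to 4.72 FPKM in DPC cultures, against 17.9 to 20.8 FPKM in HMC cultures (log2 difference -2.00). SAPCD2, EPB41L5, RAPGEF2, FRMD4B, PDCD6IP, MAGI1, LIN7B, SYNM, TNK2 and SYMPK lay toward HMC as well, with log2 differences between -1.50 and -0.38. The differences of DLL1, PRX and MTDH toward HMC were -0.28, -0.22 and -0.21 and did not hold under every setting. Median-of-ratios factors ended all 3 calls, at -0.16, -0.13 and -0.06, and with quantile normalization MTDH turned to 0.06 without being called. Without DPC replicate 1, DPC replicate 3 or HMC replicate 3, MTDH was at -0.21, -0.17 and -0.15 and was not called. PRX kept its call only when HMC replicate 1 was the library left out, and was at -0.23 to -0.18 without each of the others. Toward DPC lay AHI1, C1QTNF5 and RAB13, a GTPase that delivers tight junction proteins, at 0.32, 0.29 and 0.16. AHI1 was not called without DPC replicate 2, HMC replicate 1 or HMC replicate 2 (0.27, 0.26 and 0.29). C1QTNF5 was not called without DPC replicate 1, DPC replicate 3 or HMC replicate 3 (0.27, 0.23 and 0.24), and RAB13 not without DPC replicate 3 or HMC replicate 2 (0.14 and 0.13).

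Summed over all 126 members, junction mRNA was 2546, 2512 and 2549.8 FPKM in DPC, against 7875, 7796 and 7630.3 FPKM in HMC. This was 0.458 to 0.460% of all FPKM in DPC and 1.18 to 1.21% in HMC. The desmosome members summed to 298 ± 3.75 FPKM in DPC cultures, against 1467 ± 28.7 FPKM in HMC cultures, the tight junction members to 1644 ± 15.7 FPKM in DPC cultures, against 5472 ± 113 FPKM in HMC cultures, and the adherens junction members to 688 ± 2.92 FPKM in DPC cultures, against 948 ± 7.32 FPKM in HMC cultures (SD, n = 3 each). DPC and HMC did not overlap in any of these sums. ACTN1 alone gave a mean of 683 FPKM of the tight junction sum in DPC and 514 FPKM in HMC. CDH1 carries no junction term and is not part of the adherens junction sum. CTNNA1 and VCL together gave 364, 371 and 366 FPKM in DPC, against 371, 365 and 362 FPKM in HMC, and these overlapped. Without them the adherens junction members summed to 327, 315 and 322 FPKM in DPC, against 579, 588 and 577 FPKM in HMC. The choice of genes set aside was made after the values were seen.

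**Figure D4:**
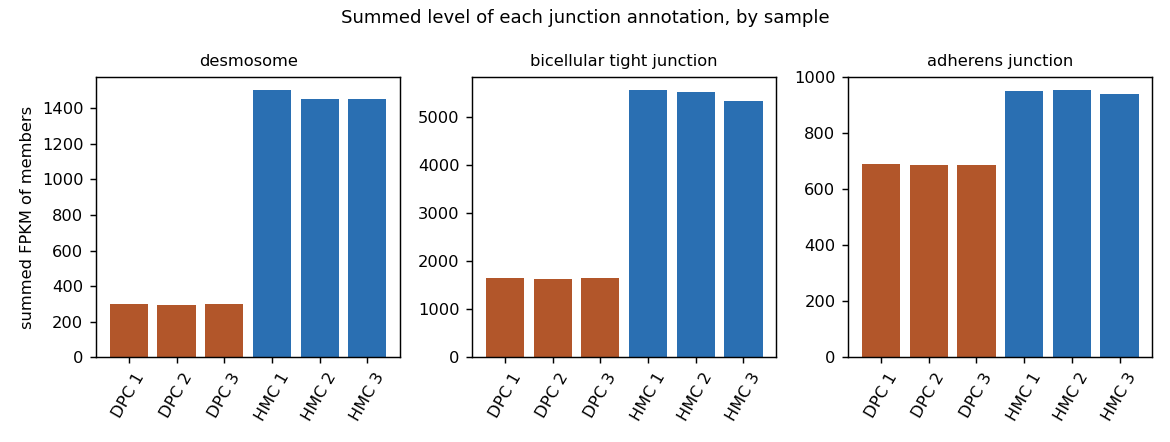
Bars give the summed FPKM of the members under each annotation term, 1 bar per library, with DPC at the left and HMC at the right of each panel. The desmosome sums are 294 to 301 in DPC and 1450 to 1500 in HMC, and the adherens junction sums differ least, at 685 to 691 in DPC and 939 to 953 in HMC. CDH1 carries none of the terms and is in no bar.

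Replicates of each cell type lay close together. Among members with a mean of 5 FPKM or more, the coefficient of variation had a median of 4.82% over 50 members in DPC and 3.92% over 78 members in HMC. The most variable were VAPA in DPC, at 16.3%, and RIGI (DDX58) in HMC, at 38.5%. RIGI, a cytosolic sensor of viral RNA that carries the tight junction term, had 1.82, 1.64 and 1.5 FPKM in DPC, against 6.86, 4.11 and 9.30 FPKM in HMC. It was higher in HMC (log2 difference -1.49, SE 0.225, limma adjusted p = 0.000383), with its largest value in HMC replicate 3. No library was at the top or the bottom of its group for most members. Of the 99 tested members, HMC replicate 1 was the highest HMC library for 42 and HMC replicate 3 the lowest for 40, and DPC replicate 1 was the highest DPC library for 39 and DPC replicate 2 the lowest for 37. The 27 members not tested had at most 1.30 FPKM in any library, and 9 of them were listed at 0 in all DPC libraries and 2 in all HMC libraries.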

How the data were processed

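The authors deposited a single table with 1 FPKM column for each of the 3 DPC and 3 HMC libraries, prepared with a stranded mRNA kit, per the labels' protocols. The submitters' processing notes list HISAT2 2.2.1.0, Trimmomatic and DESeq 1.20.0 without roles. The sources used here give no counter, genome build or annotation release, and coordinates are therefore not printed. In 100% of genes the FPKM values are multiples of the value of 1 read (to within 1e-05 of a read), which shows a count of whole reads. These recovered reads are known up to a factor per gene, and their sums are lower limits of depth. Every number of reads given for a gene is such a recovered count and is likewise a lower limit.

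DPC and HMC were compared by limma 3.58.1 (R 4.3.3). The input was log2(FPKM + 1), genes under a mean of 0.5 FPKM over the 6 libraries were dropped, and the prior variance followed the trend with level. The test was two-sided, with Benjamini-Hochberg adjustment over all genes tested and a threshold of 0.05. The procedure was also run on simulated reads with far fewer changed genes than were called here. That run cannot measure the error in the calls of these data. Tables and figures used Python 3.11.15, numpy 2.4.6, pandas 2.3.3 and matplotlib 3.10.9. The 2-fold limit is a log2 difference of 1. An exact permutation test of 3 against 3 samples cannot go below 0.1, so none was used for single genes. Alternatives were a pseudocount of 0.1, no filter, a filter at 5 FPKM, median-of-ratios and quantile scaling, an untrended prior, voom on recovered reads, a replicate block and leaving out each library.

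The members and lists were chosen with earlier results of these data known. The genes named are CDH1, the 6 members of each junction term with the largest difference in each direction, its 3 most abundant, all members that did not pass, and others chosen after their values were seen. Some genes that this rule selects are not reported here. The table uses older symbols for 63 members. These and the companion genes were matched through the table's annotation after the data were seen, as were the role groups. The table symbol is given in parentheses where it helps. Families with near-identical copies may share reads, and the sources used here do not say how such reads were counted.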

Additional observations from a re-analysis of the deposited data

How the results depend on the processing

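The counts of members that passed stayed within 1.5 times their main value under all 14 alternatives. They were 80 to 87 when 1 library was left out, 65 of 75 with a filter at 5 FPKM, 96 of 126 with no filter, and 87 with voom on recovered reads, which called 9051 of all genes. Between 79 and 84 of the 84 called members kept their call and direction wherever all were tested, and with 1 library left out 79 to 83 did. At 5 FPKM all 65 still tested did. None of the 84 was called in the opposite direction. Among members still tested, the calls lost were among PRX, VEZT, DLL1, MTDH, CLMP, AMOTL1, C1QTNF5, AHI1 and RAB13. All of these had log2 differences between -0.38 and 0.32, and the cause was not tested. Without HMC replicate 3, CLDN23 (log2 difference -1.27) fell under the filter, and 83 of the 84 were tested. The sign of the difference changed for 2 called members, neither of them then called: with quantile normalization MTDH stood at 0.0637 and VEZT at 0.0051. It also changed for genes not called in the main comparison. With median-of-ratios factors LIN7C stood at 0.0759, NHS at 0.0023, RAP2C (ENSBGRG00000025274) at 0.1069, USP53 at 0.0093 and VAPA at 0.1365. With quantile normalization LIN7C stood at 0.1302, NHS at 0.0276, PNN at 0.0386, the same RAP2C row at 0.2045 (limma adjusted p = 0.0165), TBCD at 0.0501, USP53 at 0.0210 and VAPA at 0.2604. With 1 library left out, ADAM15 ranged from -0.0541 to 0.0622, LIN7C from -0.1529 to 0.0013, NHS from -0.1928 to 0.0154, that RAP2C row from -0.0797 to 0.0081 and VAPA from -0.1428 to 0.0822. Calls were also gained. Members called toward DPC numbered 19 as deposited, 25 with median-of-ratios factors and 27 with quantile normalization, and those toward HMC 65, 61 and 60. CLDN11, ASH1L, NPHP4, PPP1R9B, TCHP and UBN1 were called toward DPC under both scalings, at log2 differences of 0.18 to 0.37 with median-of-ratios factors and 0.21 to 0.42 with quantile normalization, and ADAM15 was with quantile normalization alone of these scalings, at 0.21. Without HMC replicate 1, CLDN11 and NPHP4 were called toward DPC and PNN and TBCD toward HMC, and without HMC replicate 3 TCHP was called toward DPC. Voom on recovered reads gained NPHP4, PNN and TBCD. NPHP4 was also called with no filter and with a prior variance without trend, and CLDN11 (limma adjusted p = 0.0427) and TBCD with the replicate block. The cause of these changes was not tested. The deviations of same-numbered DPC and HMC libraries from their group means had correlations of 0.023, 0.0337 and 0.0064. DPC replicate 1 and DPC replicate 2 each correlated best with the HMC library of their own number. DPC replicate 3 correlated best with HMC replicate 2, at 0.0068. Correlations this small cannot decide whether the numbers pair the samples, which the labels do not state. With the replicate block 85 members and 8924 of all genes passed, against 84 and 9020 without it. Depth limits the genes near 0 in DPC, such as TJP3 with 1 recovered read and CLDN8 and MARVELD3 with 2 each, whose differences depend on the pseudocount.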

Other observations

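Other cell contacts outside the 3 junction types were read from lists that share no member with the genes above. Of 7 tested gap junction genes, whose connexins form channels between cells, 2 passed toward DPC and 5 toward HMC. GJB2 had 9.92, 8.80 and 11.2 FPKM in DPC, against 1229.7, 1146 and 976 FPKM in HMC (log2 difference -6.67, limma adjusted p = 3.45e-10). GJB6 had 0.965 to 1.05 FPKM in DPC cultures, against 122 to 176 FPKM in HMC cultures (log2 difference -6.17). GJA1 (connexin 43) was higher in DPC, with 321, 325 and 331 FPKM in DPC, against 161, 161 and 142 FPKM in HMC (log2 difference 1.07, limma adjusted p = 3.4e-07). GJB2 and GJB6 were lowest of the HMC libraries in replicate 3. Of 8 tested hemidesmosome genes, which anchor epithelial cells to the basement membrane, none passed toward DPC and 7 toward HMC. ITGA6 had 1.37 to 1.57 FPKM in DPC cultures, against 192 to 193 FPKM in HMC cultures, and LAMB3 had 1.89 to 2.34 FPKM in DPC cultures, against 265 to 303 FPKM in HMC cultures. The plakin PLEC did not pass, with 88.6, 89.2 and 87.8 FPKM in DPC, against 90.0, 93.3 and 91.4 FPKM in HMC (log2 difference -0.05, limma adjusted p = 0.263).

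Genes of the polarity complexes, which set the apical position of tight junctions, passed toward DPC for 1 of 10 tested and toward HMC for 7. CRB3 had 0, 0.224 and 0.663 FPKM in DPC, against 218, 206 and 191 FPKM in HMC, and PARD6G had 7.41, 6.48 and 7.13 FPKM in DPC, against 2.72, 2.26 and 2.47 FPKM in HMC. LLGL2 and PRKCZ had log2 differences of -5.81 and -5.09. All 10 tested epithelial transcription and splicing factors were higher in HMC. The lowest of them in HMC was TP63, with 0.886 to 1.14 FPKM, against 0.0417 to 0.103 FPKM in DPC. EHF had 0.0615 to 0.181 FPKM in DPC cultures, against 117 to 122 FPKM in HMC cultures, ESRP1 had 0.106 to 0.340 FPKM in DPC cultures, against 80.2 to 85.3 FPKM in HMC cultures, and ELF3 had 0.316 to 0.532 FPKM in DPC cultures, against 46.8 to 50.2 FPKM in HMC cultures. All 4 tested genes known as repressors of CDH1 were higher in DPC. SNAI1, SNAI2 and ZEB2, also on that list of 7, were not matched to a row. TWIST1 had 376, 381 and 383 FPKM in DPC, against 1.43, 3.30 and 3.97 FPKM in HMC, and TWIST2 had 81.0 to 88.8 FPKM in DPC cultures, against 2.66 to 5.13 FPKM in HMC cultures. ZEB1 had 10.9, 9.99 and 4.93 FPKM in DPC, against 0.280, 1.11 and 1.65 FPKM in HMC, from 89 reads in DPC and 11 in HMC, so its level is less precise. Of all genes tested, 29.7% passed toward DPC and 46.2% toward HMC. No row was matched for 8 of 21 listed gap junction genes and 1 of 9 hemidesmosome genes. The same held for 2 of 13 polarity genes and 2 of 12 epithelial factors.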
